A study of Mus musculus with 92 samples.

Results

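This section describes the response of mouse small intestinal organoids to the lowest dose of A-485 in the series, 3 µM, against the solvent DMSO. The members are the 8 libraries of that pair of groups, taken by their labels out of 92 libraries in all, with 4 organoid lines each giving 1 DMSO and 1 A-485 library. Organoids were grown in ENR, a medium with EGF, Noggin and R-spondin, and were collected after 4 days of treatment. Line S6026 (replicate 1) is Eif4g2(+/+), and lines S6070, S6074 and S6076 (replicates 2, 3 and 4) are Eif4g2(flox/flox). All 4 lines carry Rosa26(CreER), a ubiquitously expressed recombinase that acts only after 4-hydroxytamoxifen (4-OHT), which none of these cultures received, so the floxed gene was intact. The series text calls the organoids of this experiment wild-type. Higher doses, 5 and 10 µM, were given to the same 4 lines and share the DMSO libraries. A separate organoid experiment, in which Eif4g2 was deleted, provides a comparison: 3 flox/flox lines (S6070, S6072 and S2080) in ENR with DMSO or 4-OHT, collected on day 6.

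p300 (Ep300) and CBP (Crebbp) are acetyltransferases that place acetyl groups on histones, among them lysine 27 of histone H3, at enhancers and promoters. A-485 competes with acetyl-CoA in their catalytic domain, so it blocks the activity of both enzymes without removing the proteins. In the small intestine, Lgr5-positive stem cells at the crypt base divide under Wnt and Notch signals. They give rise to absorptive enterocytes and to the secretory Paneth, goblet, enteroendocrine and tuft cells, and all of these can form in organoids grown in ENR. After injury, the crypt can enter a state marked by genes of the fetal gut epithelium, such as Ly6a (Sca-1) and Clu (clusterin), with activity of the YAP and TEAD transcriptional regulators.

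Total counts ranged from 12870749 to 13715438 in the DMSO libraries and from 9334286 to 12688726 at 3 µM. The 3 µM library of replicate 4 (line S6076) stood apart. It held the fewest reads of the DMSO and 3 µM libraries. It had at least 1 read for 13158 genes, against 16865 to 17640 in the other 3 µM libraries and 16200 to 17595 in DMSO. In that library 104 genes with a mean of at least 5 CPM (counts scaled to the size of the library) in the other libraries had no read, against 1 to 21 genes in each of the other 7 libraries. On the second principal component of the 16 A-485 experiment libraries it lay at -137.69, and the others lay between -21.2 and 23.5. Xist was read 2152 times or more in the DMSO and 3 µM libraries of lines S6026 and S6070 and at most 8 times in those of S6074 and S6076, and Ddx3y was read only in the latter, so the line labels were not contradicted. Line S6076 also had the fewest genes with a read at the higher doses, 14557 at 5 µM and 13943 at 10 µM. The cause of the lower gene detection was not tested. Results are given with and without the 3 µM library of this line, and its higher-dose libraries stayed in both fits. Mitochondrial transcripts made up 3.31% to 3.76% of counts in DMSO and 1.81% to 2.68% at 3 µM, and their part in the results was not tested.

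**Figure D1:**
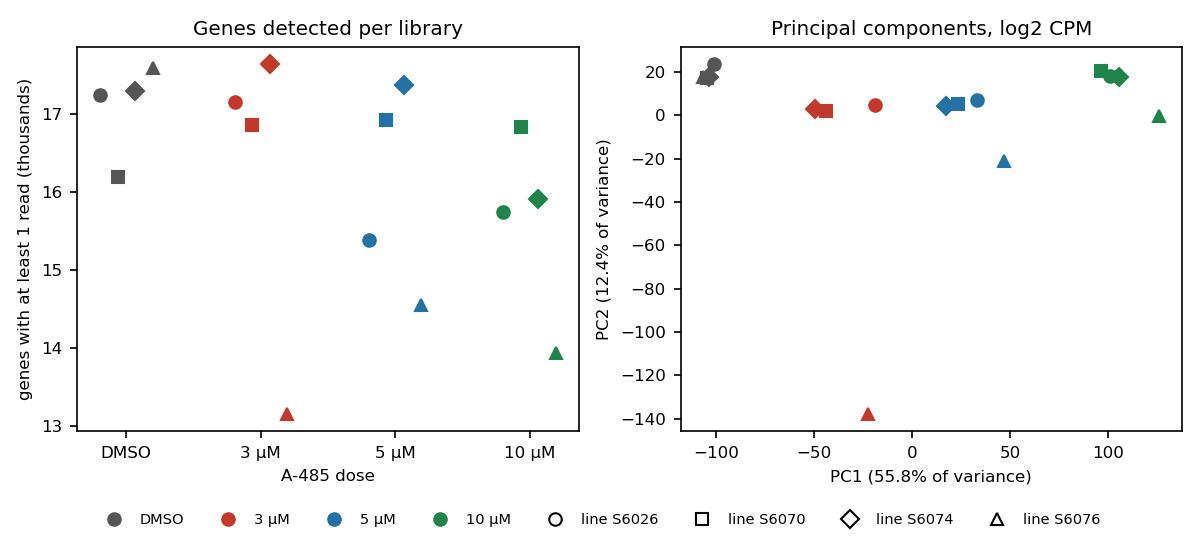
Left, genes with at least 1 read in each library by dose. Right, the first 2 principal components of log2 CPM, with the share of variance on each axis. Colour gives the dose and symbol the line. Line S6076 lies at 13158 genes at 3 µM, 14557 at 5 µM and 13943 at 10 µM. On the second component its 3 µM library lies at -137.69, away from all other libraries. DMSO and 3 µM libraries are apart on the first.

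The cultures were epithelial. Epcam, an epithelial adhesion molecule, was at 1038 ± 32.6 CPM in DMSO and 974 ± 56.3 CPM at 3 µM (SD, n = 4 each, log2 change -0.09, SE 0.08). The summed level of 8 immune markers was 1.20 to 2.67 CPM in DMSO and 0 to 4.04 CPM at 3 µM. For 10 stromal and muscle markers it was 1.16 to 2.23 CPM and 1.37 to 1.95 CPM, and for 5 endothelial markers 0.847 to 1.92 CPM and 0.0762 to 3.69 CPM. For 5 nerve and glia markers it was 1.12 to 3.77 CPM and 5.03 to 6.55 CPM. No reads were found in these 8 libraries for the immune markers Adgre1 and Cd8a, the stromal and muscle markers Col1a2, Col3a1, Dcn, Des and Lum, the endothelial markers Cdh5 and Emcn or the glial marker Sox10. In each of these 4 lists 1 gene was tested and none was called. The levels of all genes in these bulk libraries sum over the cells, so fewer cells of a type and less RNA per cell cannot be told apart.

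At 3 µM, 3603 of 13724 tested genes differed from DMSO (26.3%, edgeR's quasi-likelihood test, Benjamini-Hochberg adjusted p under 0.05), of which 1882 rose (13.7%) and 1721 fell (12.5%). The median log2 fold change of all tested genes was -0.02. Of the called genes, 622 rose and 522 fell by more than 2-fold, and 138 rose and 133 fell by more than 8-fold. The change had the same sign in all 4 lines for 3417 of the called genes. Without the 3 µM library of replicate 4, 3549 of 14116 genes were called (25.1%). Of the 3603 genes, 2995 were called in both fits, none of them with opposite sign.

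Among the genes with the greatest rises, Ly6d, Ecm1 and Serpinb9b were scarce in DMSO. Ly6d, a GPI-anchored surface protein of the Ly6 family, was at 1.46, 0.240, 0 and 0.851 CPM in the DMSO libraries of replicates 1 to 4 and at 290.2, 196, 96.0 and 74.1 CPM at 3 µM. Every treated library thus lay far above every control, with a log2 change of 7.93 (SE 0.56, edgeR adjusted p = 1.52e-06). Ecm1, a secreted extracellular matrix protein, was at 4.62, 4.00, 2.18 and 1.93 CPM in DMSO and 186, 166, 101 and 83.2 CPM at 3 µM (log2 change 5.38, SE 0.16, edgeR adjusted p = 1.73e-12). The 4 lines kept the same order in both groups. Serpinb9b, a serine protease inhibitor of the serpin family, rose from 2.35 ± 0.887 to 112 ± 43.7 CPM (SD, n = 4 each, log2 change 5.51). Msln (mesothelin, a surface glycoprotein) rose from 43.5 ± 21.6 to 746 ± 286 CPM, S100a6 (a calcium-binding protein) from 33.3 ± 10.3 to 437 ± 111 CPM, and Efemp1 (fibulin-3, a matrix glycoprotein) from 2.95 ± 0.791 to 44.9 ± 12.4 CPM. Ddx60, a helicase of the antiviral response, rose from 2.57 ± 1.34 to 43.2 ± 19.4 CPM. Fut2, which fucosylates epithelial glycans, rose from 4.68 ± 3.09 to 50.9 ± 8.12 CPM. The groups did not overlap for any of these genes, as the rule that named them required. Over all tested genes they did not overlap for 26.7%.

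**Figure D2:**
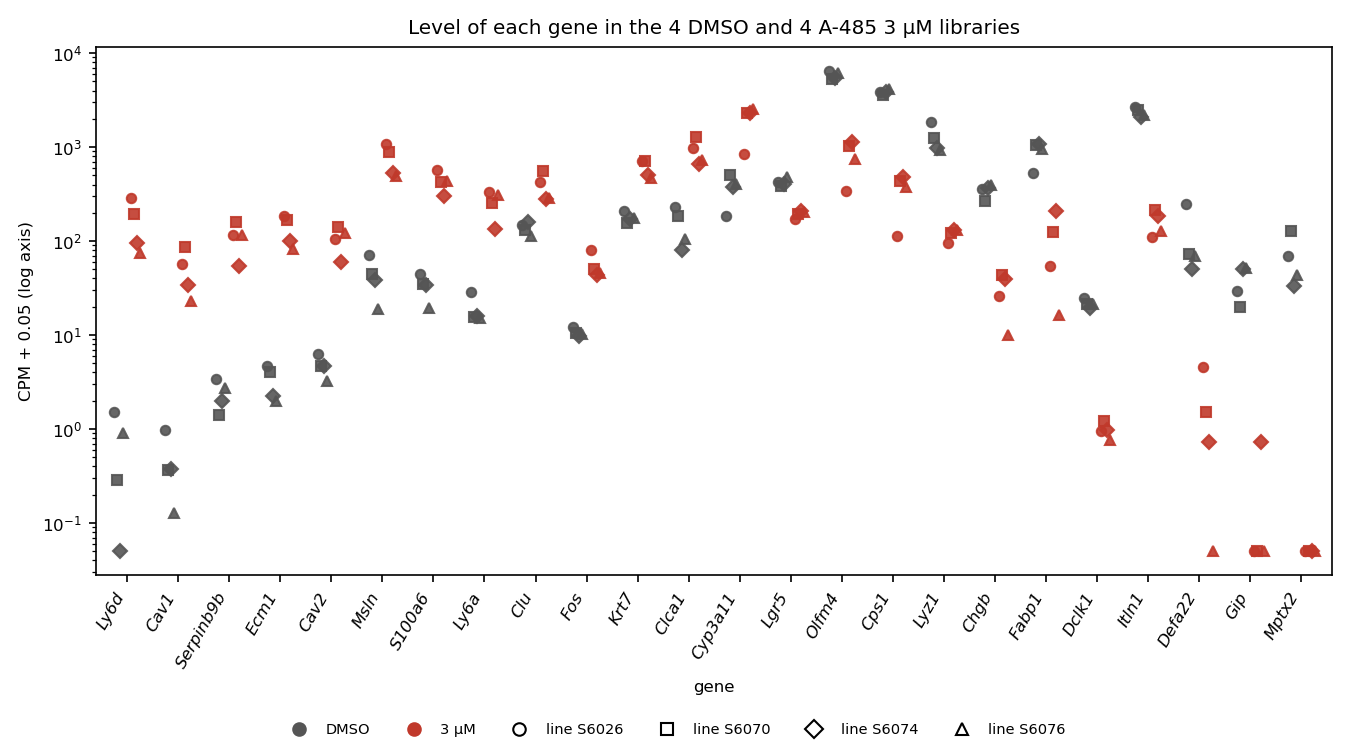
CPM plus 0.05 on a log axis for 24 genes in the 4 DMSO libraries (grey) and the 4 A-485 3 µM libraries (red), with symbols for the lines. Rises stand on the left and falls on the right. Ly6d lies at or below 1.46 CPM in DMSO and at or above 74.1 CPM at 3 µM, and Mptx2 has no read in any 3 µM library.

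Genes of the fetal and regenerative epithelium rose: 15 of 20 tested were higher and none was lower, with a median log2 change of 2.16 (16 higher and 1 lower without the 3 µM library of replicate 4). Ly6a, a marker of the regenerating crypt, was at 29.0, 15.5, 15.7 and 15.2 CPM in DMSO and 336, 253, 135 and 309.8 CPM at 3 µM (log2 change 3.73, SE 0.26, edgeR adjusted p = 5.82e-07). Clu, a secreted chaperone that marks revival stem cells, rose from 137 ± 19.2 to 386 ± 128 CPM (SD, n = 4 each, log2 change 1.45, SE 0.17). Psca, another Ly6-family protein, rose from 0.533 ± 0.554 to 38.7 ± 21.6 CPM.

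Of the caveola and EHD genes, 5 of 9 tested were higher and none lower (median log2 change 3.19; 6 higher without the library of replicate 4). Cav1 and Cav2 encode caveolins, the membrane proteins that form caveolae. Cav1 was at 0.924, 0.320, 0.323 and 0.0774 CPM in DMSO and 56.9, 86.8, 33.8 and 22.8 CPM at 3 µM (log2 change 6.82, SE 0.37, edgeR adjusted p = 5.23e-09). Cav2 was at 6.24, 4.64, 4.60 and 3.17 CPM and at 106, 142, 59.7 and 123 CPM (log2 change 4.47, SE 0.21). Their neighbours in the caveola coat moved with them: Cavin1 rose by 3.19 and Cavin2 by 5.65 in log2, and Ehd2, an ATPase at the caveola neck, by 5.55. Pacsin2 was not called, with 117 CPM in DMSO and 118 CPM at 3 µM.

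YAP and TEAD genes had 9 of 16 tested members higher and none lower (median log2 change 1.26; 10 higher without the library of replicate 4). Yap1 itself was at 150.2 ± 7.31 CPM in DMSO and 164 ± 6.02 CPM at 3 µM and was not called (log2 change 0.13, SE 0.08, edgeR adjusted p = 0.254). Its paralog Wwtr1 (TAZ) rose from 14.0 ± 3.03 to 45.8 ± 12.4 CPM (log2 change 1.69, SE 0.13). Ctgf, a secreted target of the pathway, rose from 6.54 ± 2.05 to 53.2 ± 20.7 CPM. Axl, a receptor tyrosine kinase, had 3 reads in DMSO, all of them in replicate 4, and 428 reads over the 4 libraries at 3 µM, a ratio of 155 (exact 95% interval 52.7 to 755, counting error only). Its levels at 3 µM were 8.99, 12.5, 5.96 and 9.11 CPM.

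Axl and Cav1 were among the 3 greatest rises of the named genes, and Mptx2 and Gip among the 3 greatest falls. By rule, the promoters of the 3 greatest rises and falls are shown where a RefSeq window was at hand, and 7 motifs were searched in them. The windows are the 250 bases before the RefSeq start of each gene on build GRCm38.p6, written 5′ to 3′ on the strand of the gene. The RefSeq start can differ from that of the counted gene. The Mptx2 window runs into the counted gene, which starts at 173277777 on the minus strand. For Axl (chr7:25788734-25788983, minus strand) the capitals mark GGAATG, a TEAD motif, whose first base lies 233 bases before the start. For Cav1 (chr6:17306085-17306334, plus strand) they mark TATAAA on the other strand, beginning 221 bases before the start. The windows of Mptx2 (chr1:173277757-173278006, minus strand) and Gip (chr11:96024295-96024544, plus strand) held none of the 7 motifs in their exact letters. For the TATA box only TATAAA was searched, and near forms such as TATAAG, which stands in both of these windows, were not. Ly6d and AY761184 complete the greatest rises and falls.
Axl: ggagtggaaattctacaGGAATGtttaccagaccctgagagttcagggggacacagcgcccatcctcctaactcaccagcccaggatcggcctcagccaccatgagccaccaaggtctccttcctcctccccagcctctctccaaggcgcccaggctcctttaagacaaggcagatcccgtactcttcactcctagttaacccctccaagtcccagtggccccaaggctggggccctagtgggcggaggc
Cav1: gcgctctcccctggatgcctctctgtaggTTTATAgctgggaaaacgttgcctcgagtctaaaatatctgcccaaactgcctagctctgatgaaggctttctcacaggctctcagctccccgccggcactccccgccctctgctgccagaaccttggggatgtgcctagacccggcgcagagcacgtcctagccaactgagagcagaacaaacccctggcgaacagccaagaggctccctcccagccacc
Mptx2: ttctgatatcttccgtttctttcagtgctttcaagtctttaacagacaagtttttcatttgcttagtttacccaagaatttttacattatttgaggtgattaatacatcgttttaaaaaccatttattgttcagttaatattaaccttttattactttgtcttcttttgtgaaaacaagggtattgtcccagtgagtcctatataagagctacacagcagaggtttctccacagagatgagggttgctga
Gip: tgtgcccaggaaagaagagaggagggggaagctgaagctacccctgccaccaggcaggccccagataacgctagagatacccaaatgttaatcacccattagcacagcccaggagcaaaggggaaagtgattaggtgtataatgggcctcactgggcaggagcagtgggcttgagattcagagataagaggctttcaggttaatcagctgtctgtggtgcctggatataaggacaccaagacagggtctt

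Among the 10027 tested genes with a RefSeq promoter window, GGAATG on either strand stood in 10.8% of the 1466 windows of genes called higher, 11.3% of the 1323 of genes called lower and 10.8% of all. The AP-1 motif TGANTCA stood in 5.53%, 4.54% and 4.25%, the TATA box TATAAA in 6.82%, 9.15% and 6.70%, and TTTATG (CDX) in 5.39%, 7.41% and 5.99%. The cyclic AMP response element TGACGTCA, CRE, stood in 2.80%, 1.81% and 2.80%, CAAAGTCCA (HNF4) in 0.477%, 0.680% and 0.389%, and CCAAT (NF-Y) in 35.0%, 39.2% and 36.8%. Motifs could overlap, a match is not a bound site, and these shares were not tested.

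Genes of growth factor and immediate early signalling rose in part. Of the immediate early genes, 8 of 17 were higher and 1 was lower (median log2 change 0.37). Without the library of replicate 4, 9 of 18 tested were higher. Fos, a subunit of AP-1, was at 12.2, 10.4, 9.61 and 10.3 CPM in DMSO and 79.7, 50.9, 43.0 and 45.6 CPM at 3 µM (log2 change 2.34, SE 0.14, edgeR adjusted p = 5.23e-09). Its partner Jun fell from 65.1 ± 12.0 to 44.4 ± 12.7 CPM with overlapping groups (log2 change -0.59, SE 0.18, edgeR adjusted p = 0.0202). With no replicate block Jun was not called (edgeR adjusted p = 0.167), nor on leaving out line S6026 (0.0661) or S6070 (0.0520), and with no block the list held no lower gene. Fosl1 rose from 0.917 ± 0.503 to 4.86 ± 0.669 CPM, and Dusp6, a phosphatase induced by ERK signalling that acts on ERK, from 28.4 ± 3.30 to 113 ± 33.5 CPM. EGF receptor ligands and receptors had 5 of 9 higher and none lower. Egfr rose from 61.0 ± 4.42 to 119.9 ± 28.4 CPM and its ligand Hbegf from 9.20 ± 1.97 to 24.2 ± 10.4 CPM, while the receptor Erbb2, which overlaps Mien1 on the opposite strand, was not called (log2 change -0.10, SE 0.12). Of the plasminogen activator genes, 4 of 5 were higher: the protease Plau (urokinase) rose from 0.157 ± 0.191 to 5.86 ± 2.45 CPM and its receptor Plaur from 8.53 ± 1.31 to 41.2 ± 17.8 CPM. Keratin genes had 6 of 11 higher and none lower. Krt7, a keratin of simple ductal epithelia, rose from 177 ± 22.3 to 600.1 ± 131 CPM (log2 change 1.74), and Krt8 and Krt18 by 0.55 and 0.51 in log2. The squamous keratins Krt5, Krt6a and Krt17 had no read in the 8 libraries. The pan-epithelial list, which shares Krt8 and Krt18, had 3 of 6 higher and none lower.

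**Figure D3:**
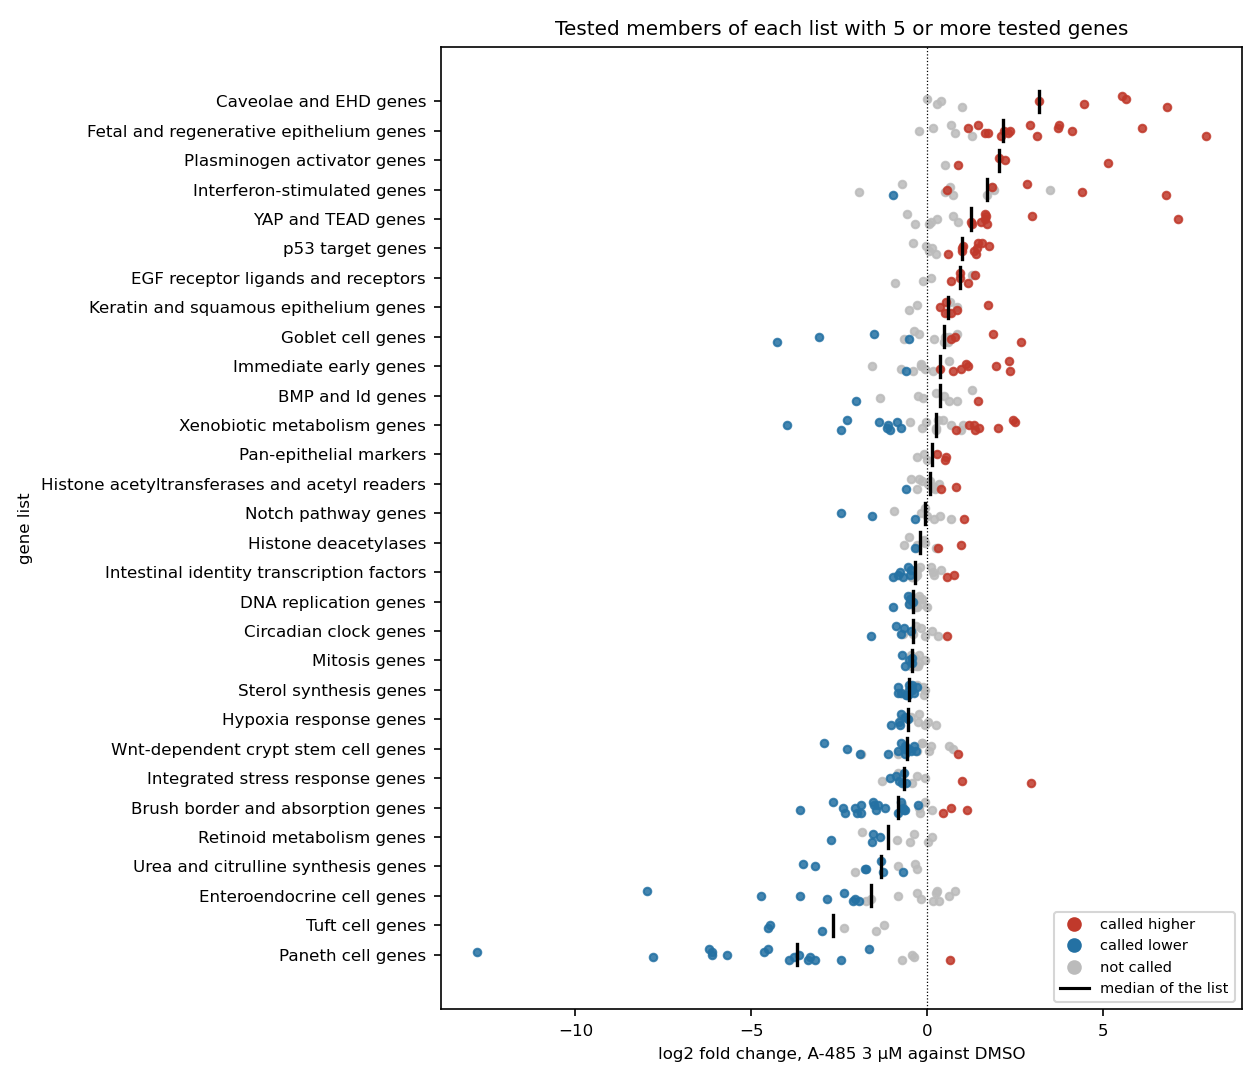
Log2 fold change at 3 µM against DMSO of each tested member (points) of the lists with at least 5 tested genes, ordered by the median of the list (black bar). Red points rose, blue points fell and grey points were not called at an edgeR adjusted p under 0.05. The medians run from 3.19 for caveola and EHD genes to -3.70 for Paneth cell genes. The points of Mptx2, whose 3 µM libraries are all at 0, and of Gbp2, whose DMSO libraries are all at 0, depend on the prior count of the fit.

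Crypt stem cell genes fell. Of 24 tested, 13 were lower and 1 was higher, with a median log2 change of -0.57 (12 and 2 without the library of replicate 4). Lgr5, the R-spondin receptor that marks the stem cell, was at 421, 386, 409 and 478 CPM in DMSO and 172, 196, 209 and 206 CPM at 3 µM (log2 change -1.11, SE 0.18, edgeR adjusted p = 0.000543). Olfm4, a secreted stem cell marker that responds to Notch, was at 6449.6, 5324, 5394 and 6124 CPM and at 339, 1039, 1139.5 and 746 CPM (log2 change -2.92, SE 0.32, edgeR adjusted p = 0.000257). The lowest of the treated libraries was that of the +/+ line. Prom1 (CD133) was the member that rose, from 467 ± 16.3 to 871 ± 141 CPM. In the Notch list 3 of 11 tested were lower and 1 was higher. The receptor Notch1 fell from 67.2 ± 7.25 to 23.5 ± 7.72 CPM (log2 change -1.58, SE 0.27, edgeR adjusted p = 0.000414) and the target Nrarp from 11.2 ± 2.99 to 2.76 ± 2.25 CPM. With no replicate block 1 gene of the list was lower and Nrarp was not called (edgeR adjusted p = 0.0595), nor was it without line S6026 (0.0787) or S6070 (0.0534). The ligand Jag1 rose from 19.2 ± 4.02 to 40.4 ± 4.59 CPM, and the ligand Dll1 was not called (log2 change 0.36, SE 0.17).

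Paneth cell genes fell furthest of all lists: 16 of 20 tested were lower and 1 was higher, with a median log2 change of -3.70, and the counts were the same without the library of replicate 4. Lyz1, the lysozyme of Paneth cell granules, was at 1837, 1262, 970.1 and 938 CPM in DMSO and 96.1, 123, 131 and 130.1 CPM at 3 µM (log2 change -3.32, SE 0.23, edgeR adjusted p = 3.76e-07). Itln1 (intelectin, a secreted lectin) was at 2680.4, 2482, 2101 and 2187 CPM and at 109, 213, 186 and 128 CPM (log2 change -3.93, SE 0.23). Mptx2, a pentraxin of mature Paneth cells, was at 69.8, 129, 33.5 and 43.3 CPM in DMSO and had no read in any 3 µM library, so it was at least 1075-fold lower against a floor of 3 reads over the group. The defensins Defa20, Defa21, Defa22, Defa23, Defa29 and Defa30 and the defensin-like AY761184 were 7 of the 10 greatest falls named by the rule on size and overlap, by 4.63 to 6.75 in log2. Defa22 was at 245, 72.9, 49.99 and 68.9 CPM in DMSO and 4.49, 1.49, 0.681 and 0 CPM at 3 µM. The +/+ line held the highest level of Defa20, Defa21 and Defa22 in both groups. Defensins lie in a cluster of near-identical copies on chromosome 8, so the share of reads assigned to each is uncertain. Mmp7, the protease that activates them, rose from 138 ± 34.1 to 211 ± 20.7 CPM with overlapping groups (log2 change 0.65, SE 0.17, edgeR adjusted p = 0.0101). The call of Mmp7, the only higher gene of the list, was lost with no replicate block (edgeR adjusted p = 0.0727) and without line S6074 (0.0849). The greatest falls also held Gkn3 (a gastrokine, 41.6 ± 13.0 to 2.40 ± 2.17 CPM) and Hsd17b13 (a lipid droplet protein, 154 ± 12.4 to 9.93 ± 3.32 CPM).

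The other secretory lists differed from each other in their counts, and the differences between lists were not tested. Of 19 tested enteroendocrine genes, 8 were lower and none was higher (median log2 change -1.58). The counts were the same among 20 tested without the library of replicate 4. The genes that fell encode granule proteins and hormones. Chgb, a granin of hormone granules, was at 357, 269, 372 and 396 CPM in DMSO and 26.3, 43.4, 39.4 and 9.93 CPM at 3 µM (log2 change -3.61, SE 0.34, edgeR adjusted p = 1.20e-05). Gip, an incretin hormone, was at 29.7, 19.98, 49.99 and 51.9 CPM and at 0, 0, 0.681 and 0 CPM (log2 change -7.96, SE 0.58). Chga, a further granin, fell from 54.5 ± 15.0 to 15.9 ± 10.4 CPM, and its 3 µM level was 1.02 CPM in replicate 4 and 16.3 to 24.2 CPM in the others (log2 change -2.06, or -1.41 without that library). Chga was not called with no replicate block (edgeR adjusted p = 0.0717) or on leaving out line S6026 (0.0868), S6070 (0.0604) or S6074 (0.0970). The lineage factor Neurog3 was not called, at 14.1 ± 3.54 and 14.2 ± 7.07 CPM (log2 change -0.17, SE 0.47). Of 6 tested tuft cell genes, 3 were lower and none higher (4 of 8 tested were lower without the library of replicate 4). Dclk1, a kinase that marks tuft cells, was at 24.5, 21.3, 19.2 and 21.4 CPM in DMSO and 0.914, 1.16, 0.937 and 0.717 CPM at 3 µM (log2 change -4.53, SE 0.43). The tuft lineage factor Pou2f3 was not called (log2 change -1.46, SE 0.79, or -0.79 without the 3 µM library of replicate 4).

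Goblet cell genes moved in both directions, with 4 of 17 higher and 4 lower and a median log2 change of 0.50 (4 and 3 without the library of replicate 4). Clca1, a secreted protein of goblet mucus, was at 229, 186, 79.9 and 104 CPM in DMSO and 972, 1277, 655 and 736 CPM at 3 µM (log2 change 2.67, SE 0.30, edgeR adjusted p = 5.74e-05). Zg16, a lectin of the mucus, rose from 158 ± 64.1 to 613 ± 313 CPM and the trefoil peptide Tff3 from 455 ± 113 to 808 ± 252 CPM, the latter with overlapping groups. Muc2, the gel-forming mucin, was not called, at 179 ± 49.6 and 278 ± 100.0 CPM (log2 change 0.59, SE 0.31, edgeR adjusted p = 0.198). Ccl6, a chemokine, and Klk1, a kallikrein protease, fell by 4.25 and 3.08 in log2.

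Genes of absorption and nutrient metabolism fell in greater number than they rose. Of 27 brush border and absorption genes, 19 were lower and 3 higher (median log2 change -0.82; 18 and 2 without the library of replicate 4). Fabp1, which carries fatty acids in the enterocyte, was at 529, 1045, 1078 and 956 CPM in DMSO and 54.5, 126, 209 and 16.2 CPM at 3 µM (log2 change -3.62, SE 0.58, edgeR adjusted p = 0.00106). Sis (sucrase-isomaltase) fell from 4391 ± 1363 to 1701 ± 679 CPM. Alpi, the alkaline phosphatase of mature enterocytes, was not called, at 609 ± 50.4 and 676 ± 61.9 CPM (log2 change 0.15, SE 0.35, edgeR adjusted p = 0.798). Krt20, a keratin of the villus tip, rose from 98.1 ± 26.3 to 213 ± 26.6 CPM. All 7 called genes of 11 in urea and citrulline synthesis fell (median log2 change -1.31). Cps1, the mitochondrial enzyme of carbamoyl phosphate synthesis, was at 3820.3, 3576, 3844 and 4170.3 CPM in DMSO and 114, 438, 486 and 372 CPM at 3 µM (log2 change -3.52, SE 0.42, edgeR adjusted p = 0.00011). Otc, the next enzyme of the pathway, fell from 116 ± 7.59 to 36.3 ± 10.2 CPM. Of 10 tested retinoid metabolism genes 4 were lower and none higher, among them Lrat, which esterifies retinol (7.39 to 1.41 CPM), and Rbp2, its intracellular carrier (521 to 219 CPM). With no replicate block 1 retinoid gene was lower and Rbp2 was not called (edgeR adjusted p = 0.0744), and Lrat was not called without line S6026 (0.0974).

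Detoxification genes split: of 27 xenobiotic metabolism genes 8 were higher and 9 lower (median log2 change 0.25; 7 and 9 without the library of replicate 4, 7 and 5 with no replicate block). Cyp3a11, the main drug-oxidizing cytochrome P450 of this family in mice, was at 187, 501, 375 and 405 CPM in DMSO and 845, 2303, 2322 and 2544 CPM at 3 µM (log2 change 2.44, SE 0.24, edgeR adjusted p = 1.15e-05). The +/+ line was lowest in both groups. Cyp2c55 rose from 67.1 ± 23.7 to 386 ± 65.6 CPM and the carboxylesterase Ces2a from 666 ± 164 to 2819.8 ± 1025 CPM. Cyp2d26 and Akr1c14 fell by 2.27 and 2.44 in log2. These genes belong to families of similar copies, so their assignment is uncertain. Among 21 transcription factors of intestinal identity, 7 were lower and 2 higher, with a median log2 change of -0.33 (6 and 2 without the library of replicate 4, 3 and 2 with no replicate block). Hnf4a, a nuclear receptor of enterocytes, fell from 917 ± 54.2 to 672 ± 81.4 CPM (log2 change -0.45, SE 0.08). Cdx2 was not called, at 172, 176, 177 and 165 CPM in DMSO and 165, 155, 182 and 79.2 CPM at 3 µM (log2 change -0.29, SE 0.14, edgeR adjusted p = 0.143), and its lowest value was that of replicate 4.

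Transcripts of both targeted enzymes were measured. Ep300 was at 129, 139, 162 and 161 CPM in DMSO and 177, 171, 192 and 256 CPM at 3 µM, a rise of 0.41 in log2 (SE 0.09, edgeR adjusted p = 0.00198). With no replicate block the Ep300 value was 0.43 and was not called (edgeR adjusted p = 0.0824). Crebbp was not called, at 51.8, 61.9, 78.6 and 70.3 CPM and 67.6, 65.7, 79.4 and 62.8 CPM (log2 change 0.09, SE 0.10). These RNA levels do not measure the activity that the compound blocks. Of 13 acetyltransferase and acetyl reader genes, 2 were higher and 1 was lower (3 and 1 without the library of replicate 4, 1 and 1 with no replicate block). Kat2b (PCAF) rose from 24.0 ± 3.49 to 42.9 ± 3.34 CPM and Hat1, which acetylates new histone H4, fell from 87.9 ± 9.13 to 58.2 ± 5.48 CPM. Of 10 tested histone deacetylases, Hdac1 and Hdac7 rose by 0.32 and 0.97 in log2 and Hdac3 fell by 0.35. In both of these lists the called share was near the 26.3% called over all tested genes. Hdac1 was not called without line S6026 (edgeR adjusted p = 0.0598), and Hdac7 overlaps Slc48a1 on the opposite strand. Eif4g2 was not called, at 1181 ± 52.9 and 1320.5 ± 263 CPM (log2 change 0.14, SE 0.09), and its 3 µM level was 1711 CPM in replicate 4 and 1139.6 to 1224 CPM in the others.

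Every tested gene of the DNA replication and mitosis lists had a log2 change below 0 at 3 µM, though most were not called. The highest was -0.0094 for replication and -0.057 for mitosis. Over all tested genes 12.5% were called lower. Of 18 DNA replication genes 5 were lower and none higher (median log2 change -0.39; 4 lower without the library of replicate 4, 3 with no replicate block), led by the licensing factor Cdt1 (94.7 ± 13.0 to 50.4 ± 13.7 CPM, log2 change -0.96). Of 17 mitosis genes 5 were lower and none higher (median log2 change -0.42; 6 lower without it, 2 with no replicate block). Mki67 was not called, at 333 ± 41.2 and 252 ± 70.3 CPM (log2 change -0.45, SE 0.17, edgeR adjusted p = 0.0639). Of 15 p53 target genes 10 were higher and none lower (median log2 change 1.01; 10 and 1 without the library of replicate 4). Mdm2, the ubiquitin ligase of p53, rose from 39.7 ± 4.72 to 82.2 ± 18.7 CPM and Trp53inp1 from 39.4 ± 4.77 to 137 ± 33.2 CPM. Cdkn1a (p21) was not called, at 127, 143, 132 and 119 CPM in DMSO and 214, 151, 129 and 101 CPM at 3 µM (log2 change 0.15, SE 0.13).

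In the remaining metabolic and stress lists, 12 of 17 sterol synthesis genes were lower and none higher (median log2 change -0.51), led by Mvd (145 ± 8.99 to 84.5 ± 28.5 CPM). Of 13 hypoxia response genes 6 were lower and none higher (median -0.55; 7 lower without the library of replicate 4). The glycolytic enzyme Pgk1 fell from 2361 ± 161 to 1175 ± 163 CPM (log2 change -1.02, SE 0.09, edgeR adjusted p = 7.77e-07). Of 13 integrated stress response genes 6 were lower and 2 higher (median -0.66; 1 higher with no replicate block). The folate enzyme Mthfd2 fell from 61.3 ± 1.20 to 29.7 ± 4.57 CPM, and the regulator Atf4 was not called, at 117 to 131 CPM in DMSO, 107 to 116 CPM in 3 libraries at 3 µM and 48.9 CPM in that of replicate 4. Of 13 tested clock genes 5 were lower and 1 higher (median -0.40). Dbp, an output gene of the clock, fell from 16.2 ± 2.18 to 5.46 ± 1.91 CPM, and the core factors Clock and Arntl were not called. Dbp overlaps Sphk2 on the opposite strand. Of 10 tested BMP and Id genes 1 rose and 1 fell, a called share under the 26.3% over all tested genes. Id2 rose from 20.1 ± 4.91 to 54.8 ± 6.90 CPM and Id1 fell from 5.70 ± 0.996 to 1.66 ± 1.37 CPM. Id1 was not called with no replicate block (edgeR adjusted p = 0.0726) or without line S6026 (0.136), S6070 (0.110) or S6074 (0.0582). Of 15 tested interferon-stimulated genes 5 were higher and 1 lower (median log2 change 1.70; 4 and 0 with no replicate block). Gbp2, a guanylate-binding protein, had no read in DMSO and 0.975 ± 0.907 CPM at 3 µM, at least 16.5-fold higher against a floor of 3 reads over the group. Gbp2 was not called on leaving out line S6026 (edgeR adjusted p = 0.125), S6070 (0.115) or S6076 (0.108). Of 8 MHC class II genes only 2 were tested and neither was called (both higher without the library of replicate 4), and H2-Aa had no read.

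The higher doses share the DMSO libraries, so their levels are set beside those at 3 µM, and 5 µM was tested against 3 µM directly. In that test, which shares the 3 µM libraries with the comparison above, 4277 of 13724 genes differed (31.2%), 2124 of them higher and 2153 lower at 5 µM (4342 without the 3 µM library of replicate 4). Several genes that rose at 3 µM were higher again at 5 µM. Krt7 had means of 177, 600.1, 1356 and 2277 CPM at 0, 3, 5 and 10 µM (5 against 3 µM, log2 change 1.19, SE 0.12, edgeR adjusted p = 4.15e-06), and Fos of 10.6, 54.8, 139 and 166 CPM (log2 change 1.37). Ly6d had 0.639, 164, 450.3 and 117 CPM. Other genes were not called between 3 and 5 µM. Clu had 137, 386, 378 and 372 CPM (5 against 3 µM, log2 change 0.00, SE 0.17), Pgk1 2361, 1175, 1225 and 1227 CPM (0.05, SE 0.09) and Fut2 4.68, 50.9, 57.6 and 31.3 CPM (0.15, SE 0.20).

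A further set was high at 3 µM and lower at higher doses. Clca1 had 149.97, 910.0, 371 and 23.4 CPM (5 against 3 µM, log2 change -1.24, SE 0.29, edgeR adjusted p = 0.00621) and Axl had 0.0580, 9.13, 2.99 and 0.237 CPM (-1.76, SE 0.58, edgeR adjusted p = 0.0296). Mmp7 had 138, 211, 78.5 and 4.65 CPM (-1.45, SE 0.17). Cyp3a11 had 367, 2004, 1401 and 97.5 CPM, and the step from 3 to 5 µM was not called (-0.53, SE 0.22, edgeR adjusted p = 0.0940). By list, 14 of 17 goblet genes were lower at 5 than at 3 µM and none was higher. For the genes that fell at 3 µM, Olfm4 had 5823, 816, 46.9 and 0 CPM (-4.06, SE 0.34), Lyz1 1252, 120.3, 11.6 and 8.69 CPM (-3.41, SE 0.24), Cps1 3852, 353, 27.0 and 1.05 CPM and Notch1 67.2, 23.5, 3.80 and 0.440 CPM. Proliferation genes, of which 10 of 35 were called lower at 3 µM, were lower at 5 than at 3 µM in 16 of 18 replication genes and 17 of 17 mitosis genes. Mki67 had 333, 252, 98.2 and 62.9 CPM (5 against 3 µM, log2 change -1.34, SE 0.17, edgeR adjusted p = 5.20e-05). Cdkn1a had 130.1, 149, 289 and 276 CPM, with a step of 0.98 from 3 to 5 µM (SE 0.13).

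**Figure D4:**
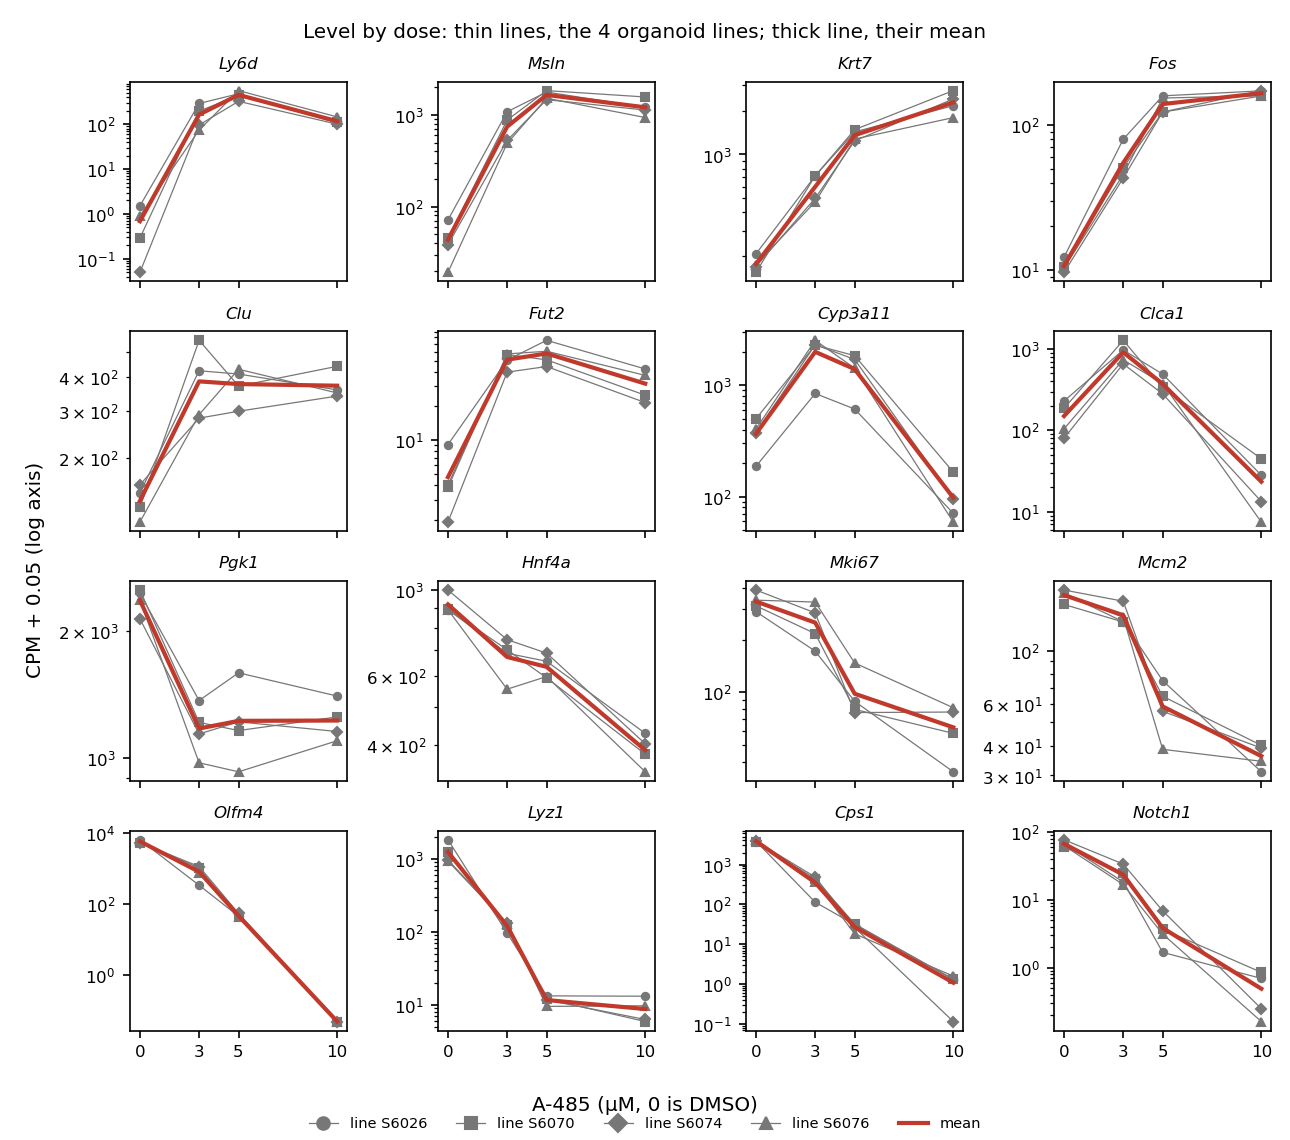
CPM plus 0.05 (log axis) of 16 genes by A-485 dose in µM, where 0 is DMSO. Thin lines are the 4 organoid lines and the thick line is their mean. Krt7 and Fos climb with each dose, Clu and Pgk1 lie at 3 µM near their level at 10 µM, Clca1 and Cyp3a11 peak at 3 µM, and Olfm4 has no read at 10 µM.

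The response at 3 µM was also compared between the +/+ line and the 3 flox/flox lines, with no 4-OHT in either. In edgeR's interaction test none of 13724 genes was called (0%), and 287 had an unadjusted p under 0.05. With 1 line on one side, the spread was estimated from the flox/flox lines alone, and the flox/flox lines were of both sexes by Xist and Ddx3y.

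Deletion of Eif4g2 in the separate organoid experiment provided a comparison with its own DMSO controls, though line S6070 was used in both. The libraries used from it held no +/+ line with 4-OHT. Changes from 4-OHT or the active recombinase thus cannot be told apart from those of the deletion. Eif4g2 encodes a translation initiation factor, and its transcript fell by 2.37 in log2 after 4-OHT. There, 6622 of 15297 tested genes were called (43.3%). Of the 13449 genes tested in both experiments, 3567 were called at 3 µM A-485 and 6121 after deletion, and 2338 in both, which is 65.5% of the former and 38.2% of the latter. Of all genes tested in both, 45.5% were called after deletion. The change had the same sign for 2188 of the 2338 genes (93.6%), of which 1150 rose and 1038 fell in both.

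The difference between the 2 changes was tested directly in 1 fit, in which 1209 of 14897 genes were called (8.12%; 726 with no line block, 1524 without the 3 µM library of replicate 4). Over all 15297 genes tested after deletion, 3398 were called higher and 3224 lower. Of the Paneth, enteroendocrine and brush border lists, 19 of 20, 21 of 22 and 21 of 27 tested genes fell after deletion. The difference between the 2 changes was called for 9, 3 and 4 members of these lists, in that order. Of the caveola genes, 7 of 9 rose after deletion and none fell, and the difference was called for 2 of them. Cav1 was at 6.82 for A-485 and 5.72 for deletion in log2 (difference 1.11, edgeR adjusted p = 0.269). Cav2 was at 4.47 and 2.77 (difference 1.69, edgeR adjusted p = 0.00161). Pgk1, Notch1, Cps1 and Krt7 showed differences of -0.39, -0.34, -0.03 and 0.21, none of them called. Ly6a and Ly6d differed. Ly6a rose by 3.73 at 3 µM and was at -0.22 after deletion (difference 3.95, edgeR adjusted p = 1.12e-05), and Ly6d was at 7.93 and -0.17 (difference 8.16, edgeR adjusted p = 6.90e-05). Of the fetal and regenerative list 14 of 22 tested rose after deletion and 1 fell. Goblet and detoxification genes, which moved in both directions at 3 µM, mostly fell after deletion. There 16 of 17 goblet genes fell and none rose, and 21 of 27 xenobiotic genes fell and 1 rose. Cyp3a11 rose by 2.44 at 3 µM and fell by 2.54 after deletion (difference 4.97, edgeR adjusted p = 3.32e-06). Fut2 rose by 3.55 and fell by 1.95 (difference 5.50, edgeR adjusted p = 1.16e-08), and Tff3 rose by 0.81 and fell by 1.75 (difference 2.56, edgeR adjusted p = 0.000335). The difference was called for 11 of the goblet genes and 15 of the xenobiotic genes. Ep300 and Crebbp rose by 1.31 and 1.19 after deletion, more than at 3 µM (differences -0.90 and -1.11, edgeR adjusted p = 0.000178 and 0.000142). The treatments differ in duration and in dose, and A-485 at 5 and 10 µM was not set against deletion here.

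**Figure D5:**
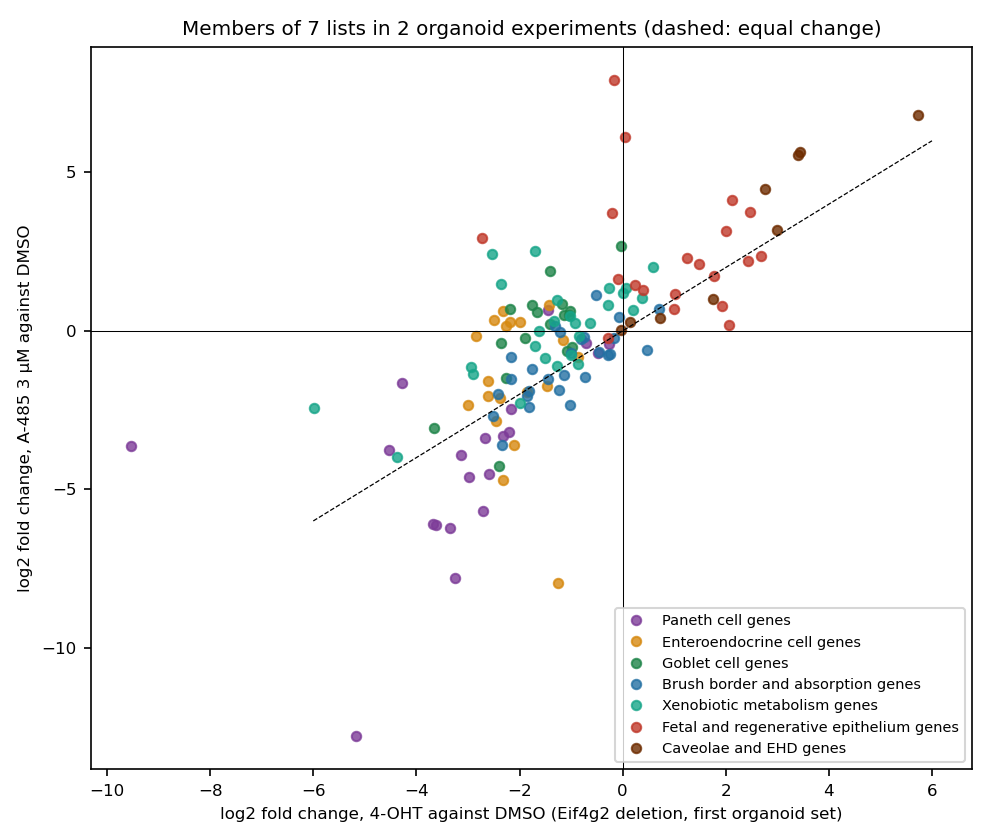
Log2 fold change after 4-OHT (Eif4g2 deletion, first organoid set, horizontal axis) and at 3 µM A-485 (vertical axis) of the members of 7 lists tested in both experiments. The dashed line marks equal change. Paneth genes other than Mmp7 lie in the lower left and the called caveola genes in the upper right, while Cyp3a11 (-2.54 and 2.44) and several goblet genes lie in the upper left, and Ly6d and Ly6a lie near 0 on the horizontal axis.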

How the data were processed

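RNA was sequenced from mouse small intestinal organoids. The authors deposited 1 table of unnormalized read counts, with a gene in each row and a library in each column, per the file headers. Alignment used HISAT2 2.0.5 and GRCm38 (mm10), per the submitters' processing notes. The counting program and its strand setting are not given in the sources used here, so counts of paralogs and of opposite-strand overlapping genes are uncertain. All 22 columns used matched a sample.

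The 16 libraries of the A-485 experiment entered 1 edgeR 4.0.16 fit (R 4.3.3) with line as a block, filterByExpr, TMM scaling and robust quasi-likelihood F-tests. P-values were adjusted by Benjamini-Hochberg over all tested genes, and "called" means below 0.05 after adjustment. SE is the standard error of a log2 fold change, and CPM are counts scaled to library size after TMM. The labels give the libraries of a replicate number the same line, so the numbers pair them. Same-line libraries deviated from the DMSO and 3 µM means with correlations from 0.0450 to 0.267. Replicates differed by at least 9.00 in chi-square per degree of freedom, so none is a copy. No source says that cultures were independent beyond the line, and p-values measure the spread between these libraries.

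Members and the 35 gene lists were chosen with earlier results of these data known. By rule, the text names the 10 greatest rises and 10 greatest falls that were called, had a mean log2 CPM of 3 or more, moved 1 way in all 4 lines with no overlap of groups, and were not predicted genes. The first 2 members and the extremes of each list and 16 fixed markers were added. A few genes are not reported here. Further list members served as examples, picked with their values seen. The alternatives were size factors and the Wald test of DESeq2 1.42.0, a filter of 1 read only, no block, the 8 libraries alone and leaving libraries out.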

Additional observations from a re-analysis of the deposited data

Results flagged for a closer look

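Among 224 sets of 4 replicate values checked with Dixon's ratio, 15 had 1 library far from the others, and chance flags about 1 in 20. At 3 µM, the library of replicate 4 was apart for Eif4g2 (1711 CPM against 1139.6 to 1224) and Atf4 (48.9 CPM against 107 to 116). The library of the +/+ line was apart at 3 µM for Cyp3a11 (845 CPM against 2303 to 2544) and Kat2b (47.9 CPM against 40.8 to 41.7). In DMSO the same line was apart for Ly6a (29.0 CPM against 15.2 to 15.7), Fgf15 (1.31 CPM against 0.0774 to 0.242), Defa20 (292 CPM against 68.3 to 77.9), Defa21 (249 CPM against 64.6 to 87.5) and Defa22 (245 CPM against 49.99 to 72.9). Line S6070 was apart in DMSO for Egfr (54.5 CPM against 62.7 to 64.2) and Otc (128 CPM against 112 to 113). Line S6074 was apart in DMSO for Hdac3 (155 CPM against 169 to 171) and Hnf4a (998 CPM against 889 to 892), and at 3 µM for Gip (0.681 CPM against 0). Axl was read in DMSO only in line S6076 (0.232 CPM).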

How the results depend on the processing

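The number of genes called at 3 µM was 2637 with no replicate block and 3603 with it, 3604 with DESeq2 size factors, 4048 by the DESeq2 Wald test and 3748 with no filter beyond 1 read. In the 8 libraries alone it was 2200, with 1032 higher and 1168 lower. Leaving out a line or a library gave 2133 to 3937 genes in all, 1126 to 2087 higher and 1007 to 1850 lower; the lowest counts came without line S6026, and leaving out S6070 gave 2341. The 5 against 3 µM count ranged from 2564 (without line S6074) to 4825, with 2723 without S6070. For the genotype interaction 23 genes were called with no filter. Deletion of Eif4g2 gave 3956 to 7625 genes on leaving out each line, with 3956 without S6070 and 4401 without S6072. The difference between A-485 and deletion gave 726 genes with no replicate block and 1524 without the 3 µM library of replicate 4, the latter chosen after the data were seen. Of 111 named genes tested, 86 were called; 14 of these were lost with no replicate block, 10 in the 8 libraries alone, and 12, 10, 8 and 1 without replicates 1 to 4. None reversed sign while called. With no replicate block 12 counts of list members moved by over 1.5 times. Depth limits genes near 1 read per library.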
